A study of Mus musculus with 12 samples.

Results

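Messenger RNA of E4BP4 transgenic mouse liver (TG) was compared between Zeitgeber time (ZT) 14, 2 h into the dark phase, and ZT2, 2 h into the light phase, counting ZT in hours from lights on. The groups were chosen by genotype and time in the sample labels: 3 TG libraries at ZT14 and 3 at ZT2, or 6 of the 12 libraries of the series. The mice were C57BL/6 males aged 8 weeks, with chow freely available, in 12 h of light and 12 h of dark, and the transgene raises the repressor E4BP4, whose gene is Nfil3, in the liver. All 6 libraries carry the transgene; the other 6 are of wild-type (WT) liver at the same times and serve here for the spread between libraries and for values side by side. Each poly(A) library was made from 850 ng of total RNA. The labels do not give the promoter or structure of the transgene, nor say that each library is a separate animal, so that p-values measure the spread between these libraries, which may be partly technical.

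The liver clock is a feedback loop in which BMAL1 (gene Arntl), paired with CLOCK or NPAS2, binds E-box elements and drives the Per, Cry, Nr1d and Dbp genes, whose products repress or modulate the loop. E4BP4 represses genes through D-box elements, the same elements at which the PAR bZIP proteins (DBP, TEF, HLF) act as activators. The endoplasmic reticulum (ER) of hepatocytes folds plasma proteins with chaperones such as BiP (gene Hspa5), whose genes carry ER stress response elements and are induced when unfolded protein accumulates.

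The TG libraries held 17791495 to 23981021 gene reads. Nfil3, the targeted gene, reached 71.1, 69.8 and 62.6 CPM at ZT2 and 63.8, 93.9 and 77.9 CPM at ZT14, where CPM is a gene's share of the library's gene reads after scaling between libraries. Summed hepatocyte markers reached 88860 to 108700 CPM in the TG libraries, against at most 542.5 CPM for the marker lists of cholangiocytes, stellate cells, endothelial cells, Kupffer cells and lymphocytes. In bulk tissue, fewer cells of a type and less RNA per cell cannot be told apart. In a principal component analysis over 2000 genes, component 1 (33.1% of the variance) separated the times. Component 2 (16.5%) set apart replicate 2 of the TG libraries at ZT2, at -30.8, and replicate 3 of those at ZT14, at -33.2, against 2 to 12.1 for the other 10 libraries. Male-biased liver genes summed to 14920 and 11980 CPM in those libraries, against 27360 to 38770 CPM in the other TG libraries. Female-biased liver genes summed to 265.1 and 218.4 CPM in them, against 82.62 to 131.1 CPM in 3 of the other TG libraries and 231.2 CPM in replicate 2 at ZT14. The part of these differences in the results was not tested. One such library lies in each time group, and counts without both are given beside the results that they moved most.

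To find genes that differed between ZT14 and ZT2 in TG liver, edgeR's quasi-likelihood test was run on total gene reads of all 12 libraries, and a gene was called at a Benjamini-Hochberg adjusted p below 0.05. Of 15244 genes tested, 1862 (12.2%) were called, 1021 (6.7%) higher and 841 (5.52%) lower at ZT14. The median change over all genes was 0.006 on the log2 scale, and the median size of a called change was 0.61. A change of at least 2-fold was seen for 222 higher and 221 lower genes, and of at least 8-fold (log2 of 3) for 15 and 12. For 1010 of the higher and 835 of the lower genes the 3 libraries of one time did not overlap those of the other; over all genes tested, 15.8% were free of overlap with ZT14 higher and 14.3% with ZT14 lower. Scaled by library size alone, 1265 genes were higher and 685 lower, so that the higher share was 64.9% in place of 54.8%. Without both libraries that stand apart, 1150 genes were called; 1223 were called without replicate 2 and 1127 without replicate 3 of TG at ZT2, and 1230 without replicate 1 of TG at ZT14. In WT, 1398 genes (9.17%) were called, 739 (4.85%) higher and 659 (4.32%) lower.

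The activators and repressors of the clock lay on opposite sides of the ZT14 to ZT2 comparison. Of 6 clock activators in the list, 3 fell (Arntl, Clock and Npas2) and 1 rose, with a median log2 change of -0.49; of 14 repressors and their modifiers, 8 rose and 2 fell, with a median of 0.56. Of the PAR bZIP factors and Nfil3, the 3 activators rose and Nfil3 did not pass the test. Over all genes tested, 6.7% were higher, 5.52% were lower and the median was 0.006, and the counts and medians of all lists are read against these.

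**Figure D1:**
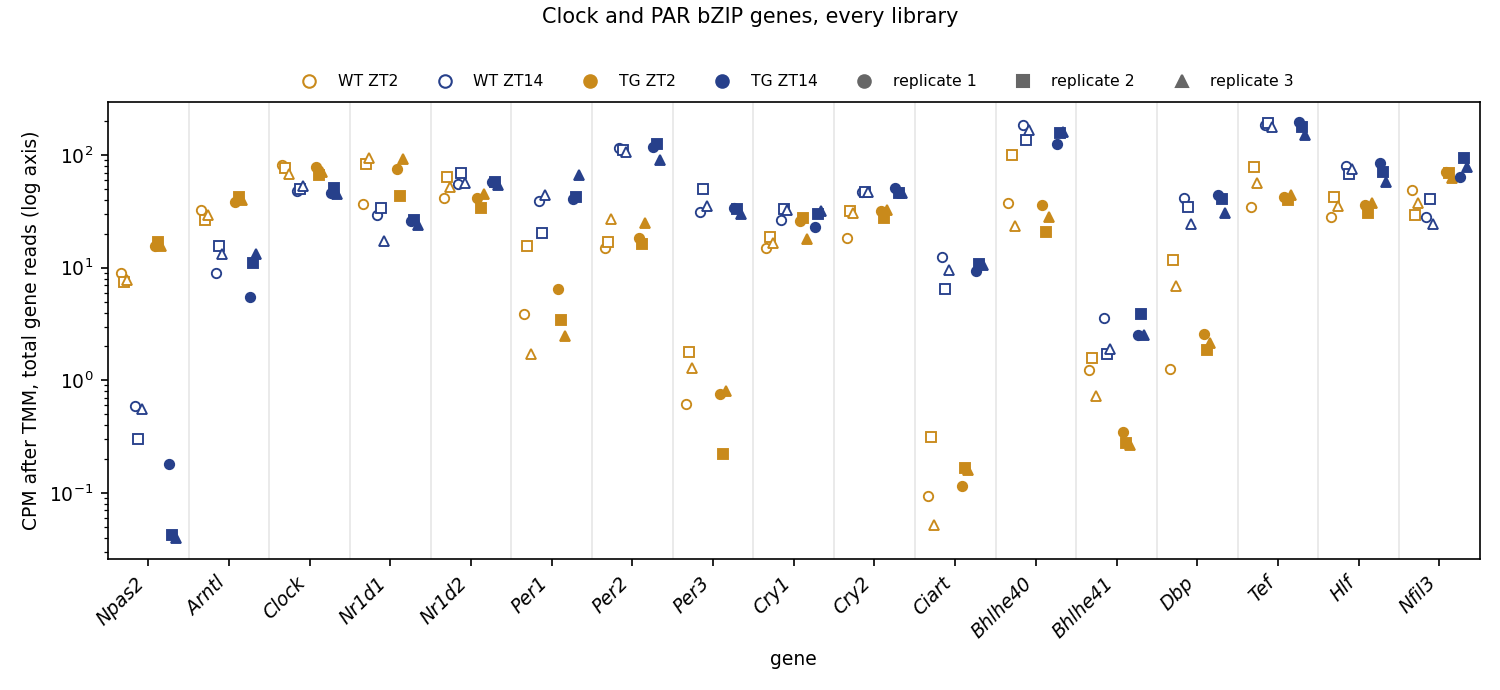
Total gene reads in CPM (log axis) of clock and PAR bZIP genes, with 1 point for each of the 12 libraries (WT open, TG filled; shapes are the replicates). TG libraries of the 2 times lie far apart for Npas2, Ciart and Per3, and overlap for Cry1 and Nfil3.

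Npas2 (chr1:39193731-39363236), a partner of BMAL1 related to CLOCK, had the largest fall of the genes named here. It counted 15.7, 17.1 and 15.6 CPM at ZT2 and 0.179, 0.0422 and 0.0398 CPM at ZT14, the latter from 4, 1 and 1 reads. The log2 change was -7.48 (SE 0.31, edgeR adjusted p = 7.34e-08), and its size depends on those 6 reads. In WT liver the change was -4.05. The difference between genotypes, -3.43 (SE 0.49), missed the threshold in edgeR (adjusted p = 0.0519); 6 of 22 alternatives called it, DESeq2 among them, and without both libraries that stand apart it was -3.05 (edgeR adjusted p = 0.313).

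Arntl counted 38.4, 42.7 and 40.0 CPM at ZT2 and 5.51, 10.9 and 13.2 CPM at ZT14, a log2 change of -2.02 (SE 0.26, edgeR adjusted p = 0.000452). Clock, which encodes the other partner of BMAL1, fell by 0.59 on the log2 scale (SE 0.09, edgeR adjusted p = 0.00151). Nr1d1, which encodes REV-ERB alpha, a repressor of Arntl, also fell, from 75.7, 43.6 and 92.3 CPM to 26.1, 26.4 and 23.8 CPM (log2 change -1.47, SE 0.35, edgeR adjusted p = 0.0161), a call that 3 alternatives lost (adjusted p = 0.0519 to 0.0661). Nr1d2, its paralog, was called 0.50 higher at an edgeR adjusted p of 0.0482, and 13 alternatives lost that call.

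Among the genes named here, the Per genes and the E-box repressors of the clock included the largest rises. Ciart, a repressor of CLOCK and BMAL1 also known as Chrono (chr3:95878503-95882251), counted 0.115, 0.165 and 0.161 CPM at ZT2, from 2, 3 and 3 reads, and 9.31, 10.9 and 10.6 CPM at ZT14, from 208, 258 and 267 reads. Its log2 change was 6.07 (SE 0.39, edgeR adjusted p = 2.45e-06); in WT it was 5.99. Per3 counted 0.750, 0.220 and 0.802 CPM at ZT2 and 33.8, 32.96 and 29.98 CPM at ZT14, a log2 change of 5.76 (SE 0.34, edgeR adjusted p = 1.71e-06). Both genes were nearly silent at ZT2, and no library of one time came near the other. Per1 rose by 3.62 and Per2 by 2.47 on the log2 scale; Per1 reached 41.2, 42.4 and 67.1 CPM at ZT14. Bhlhe40, a repressor that competes at E-boxes, rose by 2.38. Its paralog Bhlhe41 counted 0.346, 0.275 and 0.267 CPM at ZT2 and 2.51, 3.88 and 2.51 CPM at ZT14 (log2 change 3.30, SE 0.42, edgeR adjusted p = 0.000463). The WT change of Bhlhe41 was 1.03 and not called, and the difference of 2.27 between the genotypes had an unadjusted p of 0.0016 and an adjusted p of 0.59. Cry2 was called 0.63 higher, and 5 alternatives lost it. Cry1 had overlapping groups in TG (log2 change 0.24, edgeR adjusted p = 0.406) and was called in WT at 0.89; its difference between genotypes was -0.65 and not called.

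The promoters of Ciart and Per3 are shown because their genes rose most and because they hold the elements at which the clock activators and E4BP4 are known to act. They are the 250 bases before the RefSeq gene start (GRCm38.p6, minus strand for both), chr3:95882229-95882478 and chr4:151044666-151044915. Capitals mark the E-box CACGTG in Ciart and the D-box TTATGTAA in Per3:
Ciart: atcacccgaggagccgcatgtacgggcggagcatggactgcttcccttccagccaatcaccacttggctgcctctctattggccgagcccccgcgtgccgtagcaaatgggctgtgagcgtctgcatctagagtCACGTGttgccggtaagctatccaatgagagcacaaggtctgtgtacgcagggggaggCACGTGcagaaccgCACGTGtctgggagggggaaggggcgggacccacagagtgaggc
Per3: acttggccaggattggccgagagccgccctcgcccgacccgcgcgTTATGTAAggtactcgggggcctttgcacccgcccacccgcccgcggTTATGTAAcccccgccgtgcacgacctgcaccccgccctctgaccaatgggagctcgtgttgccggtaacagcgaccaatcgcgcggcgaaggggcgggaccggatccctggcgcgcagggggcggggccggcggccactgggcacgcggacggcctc
The Ciart window holds the E-box 3 times, and the Per3 window holds the D-box in 2 places. Both strands were searched, for CACGTG as the E-box and for TTATGTAA or TTACGTAA as the D-box. An E-box was found in 6.02% of 32851 promoters of this length in the table, in 9.43% of those of tested genes, in 11.5% of the higher and 10.7% of the lower genes, and in 4 of 10 clock repressors with a promoter there (Per1, Cry1, Ciart and Bhlhe41). The D-box was found in 0.931% of all promoters, in 0.855% of those of tested genes, in 15 of 783 (1.92%) of the higher and in 0.974% of the lower genes. A match is a description of the letters and not evidence of binding.

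The PAR bZIP activators rose together. Dbp (chr7:45705088-45710203) counted 2.60, 1.87 and 2.14 CPM at ZT2 and 44.0, 40.7 and 30.5 CPM at ZT14, a log2 change of 4.12 (SE 0.53, edgeR adjusted p = 0.000465). Tef counted 42.2, 40.3 and 44.0 CPM at ZT2 and 195.9, 179.6 and 151.2 CPM at ZT14, a log2 change of 2.06 (SE 0.22, edgeR adjusted p = 0.000119). Hlf rose by 1.02 (edgeR adjusted p = 0.00153), and the libraries of both times stayed apart for all 3 genes. Nfil3, their antagonist and the gene raised in TG, gave a log2 change of 0.21 (SE 0.20, edgeR adjusted p = 0.558), with overlapping groups.

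Genes known to follow the clock in liver rose more often than they fell. Of 20 in the list, 10 rose and 3 fell (median log2 change 0.81), and 11 rose and 2 fell in WT. Usp2, a ubiquitin protease, counted 1.096, 0.715 and 0.963 CPM at ZT2 and 31.4, 35.4 and 27.9 CPM at ZT14 (log2 change 5.09, SE 0.21, edgeR adjusted p = 7.34e-08). Noct, which encodes the phosphatase nocturnin, rose from 3.23, 5.497 and 2.89 CPM to 51.2, 49.5 and 122.4 CPM, the ZT14 value of replicate 3 standing well above the others. Alas1, the first enzyme of heme synthesis, rose by 2.95 on the log2 scale, from 125.0, 63.2 and 106.6 CPM to 464.6, 944.8 and 871.4 CPM. Nampt, which makes NAD, rose by 1.69 and Por, the electron donor of the P450 enzymes, by 1.79. Wee1, a kinase that holds cells before mitosis, rose by 2.71, and Tspan4, a tetraspanin, by 1.65.

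Genes outside the clock also changed several-fold. Elovl3, a fatty acid elongase, counted 459.6, 544.9 and 510.7 CPM at ZT2 and 11.9, 22.7 and 23.8 CPM at ZT14, a log2 change of -4.70 (SE 0.39, edgeR adjusted p = 2.1e-05). Pitx3, a homeobox factor, counted 31.0, 30.9 and 22.8 CPM at ZT2 and 0.448, 1.18 and 3.62 CPM at ZT14 (log2 change -3.98). Its WT change of -1.68 was not called, nor was the difference of -2.30 between genotypes (edgeR adjusted p = 0.816). Pitx3 (chr19:46135685-46148326) lies next to Elovl3 (chr19:46131897-46135307), and whether reads of one were counted for the other was not tested. Loxl4, a lysyl oxidase, fell by 3.19, Spon2, a secreted matrix protein, by 2.84, Dhrs9, a dehydrogenase of retinoids and steroids, by 2.61, and Asap2, an activator of ARF GTPases, by 2.37. In the other direction, Mfsd2a, a transporter of lysophospholipids, counted 1.096, 2.64 and 1.18 CPM at ZT2 and 9.63, 27.6 and 65.0 CPM at ZT14, a log2 change of 4.37 (SE 0.76, edgeR adjusted p = 0.00291) with its ZT14 libraries spread widely. For each of these genes the libraries of the times did not overlap.

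**Figure D2:**
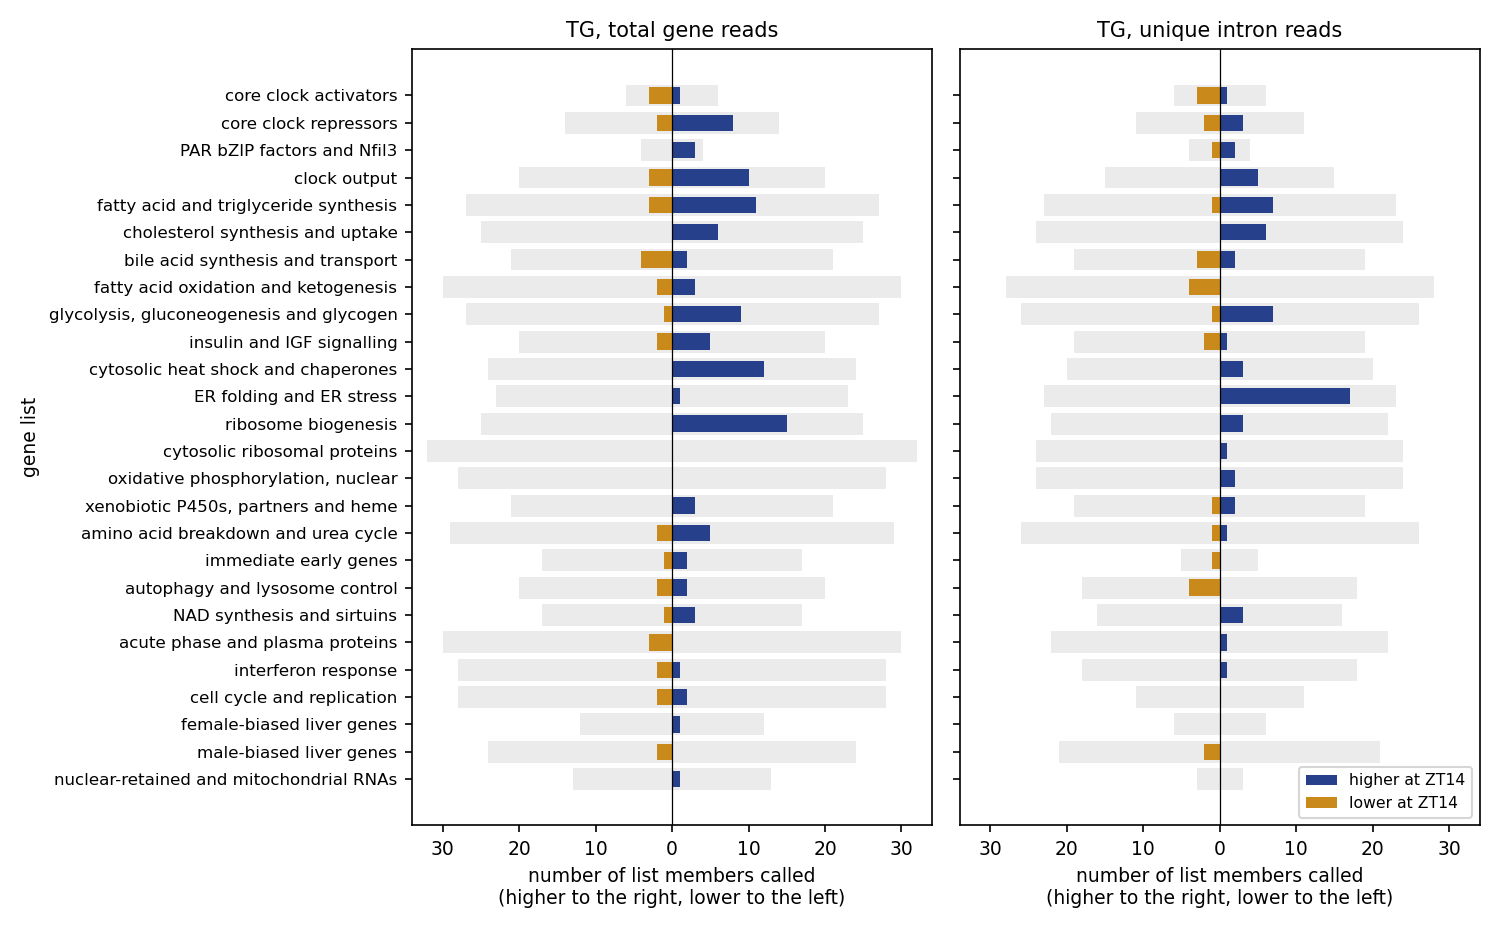
Number of members of each gene list called higher (right, blue) and lower (left, ochre) at ZT14 in TG, on total gene reads and on unique intron reads, with grey bars for the number of members tested. Ribosome biogenesis (15) and heat shock (12) have the most members higher on total gene reads, and ER folding (17) has the most on intron reads.

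Of 27 genes of fatty acid and triglyceride synthesis, 11 rose, 3 fell and 13 did not pass the test (median 0.38, against 0.006 over all genes); without TG at ZT2 replicate 2, 7 rose. Thrsp, a regulator of lipogenesis, counted 140.7, 71.2 and 197.0 CPM at ZT2 and 644.6, 1076 and 802.5 CPM at ZT14, a log2 change of 2.63 (SE 0.39, edgeR adjusted p = 0.00117). Fasn, fatty acid synthase, rose from 301.9, 311.2 and 538.1 CPM to 1657, 1335 and 905.9 CPM, a log2 change of 1.76. Srebf1, the transcription factor of lipogenesis, rose by 1.19 and Elovl6, an elongase, by 1.85. Insig2, which holds SREBP in the ER, fell by 1.83, from 245.3, 203.1 and 255.0 CPM to 49.2, 83.0 and 65.6 CPM. In WT, 16 of the 27 rose and 2 fell, and the changes of Thrsp (4.23), Fasn (2.77) and Srebf1 (1.98) were larger than in TG by 1.61, 1.01 and 0.80. For 12 of the 27 the difference between genotypes had an unadjusted p below 0.05, as for 912 of all 15244 genes; it was called for none of the 27.

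Of 25 genes of cholesterol synthesis and uptake, 6 rose and none fell (median 0.43), in TG as in WT; without both libraries that stand apart 4 rose. Leaving out 1 library at a time gave 4 to 7 that rose and moved the median between 0.11 and 0.74. Among 21 genes of bile acid synthesis and transport, 2 rose and 4 fell (median -0.14). Cyp7a1, the hydroxylase that commits cholesterol to bile acids, counted 28.6, 40.5 and 61.3 CPM at ZT2 and 281.1, 131.1 and 223.2 CPM at ZT14, a log2 change of 2.28 (SE 0.37, edgeR adjusted p = 0.00212). Hsd3b7, a later enzyme of the pathway, fell by 1.36, and Abcb11, the bile salt export pump, by 1.25, from 642.5, 618.7 and 618.9 CPM to 259.2, 270.0 and 259.3 CPM. The Abcb11 libraries of each time lay within a narrow band.

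Of 27 genes of glycolysis, gluconeogenesis and glycogen, 9 rose and 1 fell (median 0.25); 5 rose without TG at ZT14 replicate 2. Gys2, liver glycogen synthase, rose by 1.33, Pfkfb3, which makes the activator of phosphofructokinase, by 1.77, and Slc37a4, the glucose 6-phosphate transporter, by 1.16. Pck1 and G6pc, the enzymes of gluconeogenesis at its start and end, did not pass the test and had overlapping groups, with log2 changes of -0.20 and 0.05 and edgeR adjusted p = 0.833 and 0.966. Of 30 genes of fatty acid oxidation and ketogenesis, 3 rose and 2 fell (median 0.07), or 16.7% called against 12.2% of all genes tested; 1 rose without replicate 2 of TG at ZT2 or without both libraries that stand apart. Plin2, which coats lipid droplets, fell by 0.93. Of 29 genes of amino acid breakdown and the urea cycle, 5 rose and 2 fell; 3 rose without replicate 1 of TG at ZT2 or without replicate 3 of TG at ZT14. Asl, which makes arginine, rose by 1.00, while Bhmt and Cbs, which use homocysteine, fell by 1.32 and 0.98.

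Of 24 cytosolic chaperones and heat shock genes, 12 rose, none fell and 12 did not pass the test (median 0.68, against 0.006 over all genes); 13 rose in WT. Hspa1b, an inducible HSP70, counted 21.5, 10.8 and 15.9 CPM at ZT2 and 262.7, 173.4 and 117.5 CPM at ZT14, a log2 change of 3.52 (SE 0.45, edgeR adjusted p = 0.000443). Hspa1b has a near-identical copy, Hspa1a, and the division of reads between them is uncertain. Hspa8, the constitutive HSC70, rose by 0.95, Hsph1, an HSP110, by 1.06, Bag3, a co-chaperone, by 1.60, and Dnaja1, an HSP40, by 0.75. Ribosome biogenesis genes also rose, 15 of 25 with none lower (median 0.51), against 8 in WT. Without TG at ZT2 replicate 2, or without TG at ZT2 replicate 3, 9 rose, and without both libraries that stand apart, 7. The difference between genotypes was called for 0 of the 25. It had an unadjusted edgeR p below 0.05 for 5 of them, as for 912 of all 15244 genes. Nop2, a nucleolar methyltransferase, counted 16.7, 14.9 and 15.6 CPM at ZT2 and 36.4, 33.6 and 36.9 CPM at ZT14, a log2 change of 1.18, and Rrp12, a factor of ribosome export, rose by 1.23. Of 32 cytosolic ribosomal protein genes (median -0.11) edgeR called 0, with 1 at an unadjusted p below 0.05. Of 28 nuclear genes of oxidative phosphorylation (median -0.08) it called 0, with 3 at an unadjusted p below 0.05. Over all 15244 genes tested, 4008 had an unadjusted edgeR p below 0.05. DESeq2 and limma-voom also called 0 in both lists.

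Further lists, other than those of cell type markers, had at most 35.0% of their members called, against 12.2% of all genes tested. Of 20 autophagy and lysosome genes, 2 rose and 2 fell, with Gabarapl1, a marker of autophagosomes, falling by 1.08 and Bnip3, a mitophagy receptor, rising by 0.98. Of 30 acute phase and plasma protein genes, 3 fell (median 0.10), all of them fibrinogen chains (Fga, Fgb and Fgg). Without both libraries that stand apart edgeR called 0. In WT, 7 of the 30 fell (median -0.40). The difference between genotypes had an unadjusted edgeR p below 0.05 for 12 of the 30, as for 912 of all 15244 genes, and was called for 0 of the 30. Of 28 cell cycle genes, 2 rose and 2 fell: Ccne1, cyclin E, rose by 2.40, and Cdkn1a, the p21 inhibitor, fell by 1.83 and Ccng2, cyclin G2, fell by 1.67. Of 20 genes of insulin and IGF signalling 5 rose and 2 fell; Stat5b, which transmits growth hormone signals, fell by 1.00, and Pik3r1, the regulatory subunit of PI3 kinase, rose by 0.95. Of these 20, 2 rose in the fits without 1 of the ZT2 libraries of TG or without both libraries that stand apart, and 3 without replicate 2 or without replicate 3 of TG at ZT14. Among the lists of hepatocyte, other cell, female-biased and male-biased markers, at most 2 genes of a list were called.

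Reads in introns come mainly from unspliced RNA, and exon reads mainly from mature message, so the deposited unique exon and unique intron reads were compared. Intron reads were 8.48 to 9.42% of uniquely mapped gene reads in the TG libraries. In genes with at least 2 exons, edgeR called 1728 of 12582 (13.7%) on exon reads, 894 (7.11%) higher and 834 (6.63%) lower at ZT14, and 679 of 11230 (6.05%) on intron reads, 342 (3.05%) higher and 337 (3.0%) lower. Of 10078 genes tested in both kinds, 124 rose and 142 fell in both, 664 rose and 600 fell on exon reads alone, and 199 rose and 164 fell on intron reads alone. The median gene of these had 331 exon and 47 intron reads in a TG library, and the part of this depth in the lower number of intron calls was not tested. Without both libraries that stand apart, 1160 genes were called on exon and 310 on intron reads. On intron reads, scaling by library size alone moved the median change of all genes to 0.129 and gave 551 higher and 207 lower genes (72.7% higher in place of 50.4%); scaling by total gene reads gave 343 and 203 (62.8% higher). The change on exon reads less that on intron reads, called here the exon-minus-intron difference, was then tested within libraries in edgeR. It was called for 264 genes (2.62%), 101 (1.0%) positive and 163 (1.62%) negative. Of the negative genes, 114 were called higher on intron reads and 30 lower on exon reads, and of the positive genes 59 were lower on intron reads and 29 higher on exon reads. Without both libraries that stand apart 137 were called, and with 1 TG library left out at a time 79 to 203. In WT, 80 genes (0.794%) were called, 23 (0.228%) positive and 57 (0.566%) negative; 46 were called in both genotypes with the same sign, or 17.4% of the TG and 57.5% of the WT calls. The difference of TG from WT in this measure was called for 0 genes by edgeR, with 550 at an unadjusted p below 0.05.

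**Figure D3:**
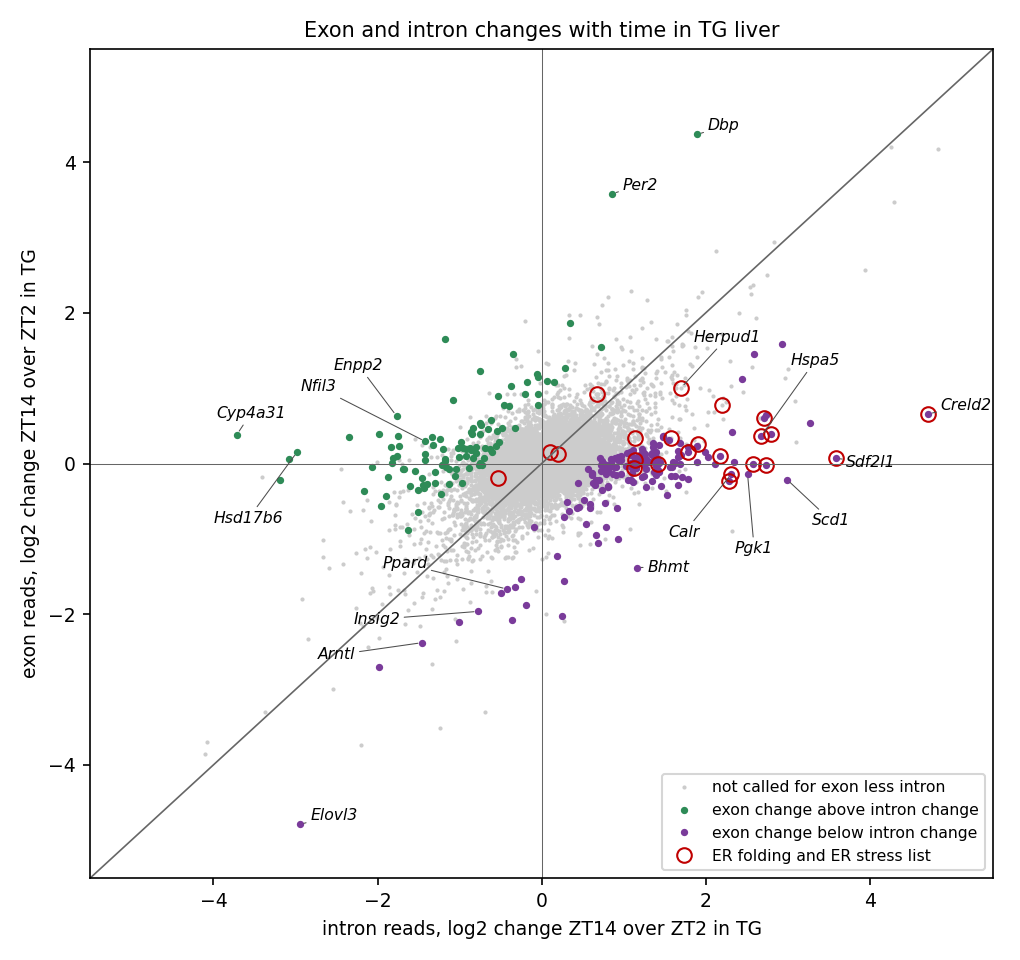
Log2 change from ZT2 to ZT14 in TG on unique intron reads (horizontal) and on unique exon reads (vertical) for 10078 genes, with colour for a called exon-minus-intron difference, circles for the ER folding list and a line of equal change. Npas2 lies outside the axes; most circles lie to the right of 0 at an exon change near 0.

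Genes of ER folding and ER stress were higher at ZT14 on intron reads, while few passed the test on exon reads. On total gene reads 1 of 23 rose (4.3%, median 0.17) and on exon reads 1 rose (median 0.15), whereas on intron reads 17 rose and none fell (median 1.90), against 3.05% higher over all genes with a median of -0.001. The exon-minus-intron difference was called for 14 of the 23, all negative (median -1.46, against -0.023 over all genes). The mean of the list on intron reads, relative to TG at ZT2, was 0.02, -0.08 and 0.06 in the ZT2 libraries and 2.18, 2.17 and 0.78 in the ZT14 libraries on the log2 scale. Replicate 3 at ZT14, a library that stands apart, was thus the lowest of its group and still above the ZT2 libraries. On exon reads the same means were 0.26, -0.11 and -0.15 at ZT2 and 0.51, 0.26 and -0.08 at ZT14, and overlapped.

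The number of ER genes called depended on single libraries. Without 1 library, the intron count was 9 (TG at ZT2 replicate 1), 8 (TG at ZT2 replicate 2), 11 (TG at ZT2 replicate 3), 9 (TG at ZT14 replicate 1), 9 (TG at ZT14 replicate 2) or 19 (TG at ZT14 replicate 3), and it was 19 without both libraries that stand apart. The list's median on intron reads stayed between 1.67 and 2.36 in these fits. The count of called negative differences was 3, 4, 7, 3, 3 and 16 in the same order, and 11 without both; limma on log2 exon less log2 intron reads called 3. In WT the intron change had a median of 0.98 with 1 gene called. The WT exon-minus-intron difference had a median of -0.86 with 0 called by edgeR. It had an unadjusted edgeR p below 0.05 for 12 of the 23, as for 1187 of all 10078 genes tested. The intron means of WT were 0.65, 0.35 and -0.08 at ZT2 and 1.90, 1.14 and 0.72 at ZT14. The difference between genotypes in the exon-minus-intron measure was called for 0 of the 23. It had an unadjusted edgeR p below 0.05 for 4 of them, as for 550 of all 10078 genes.

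**Figure D4:**
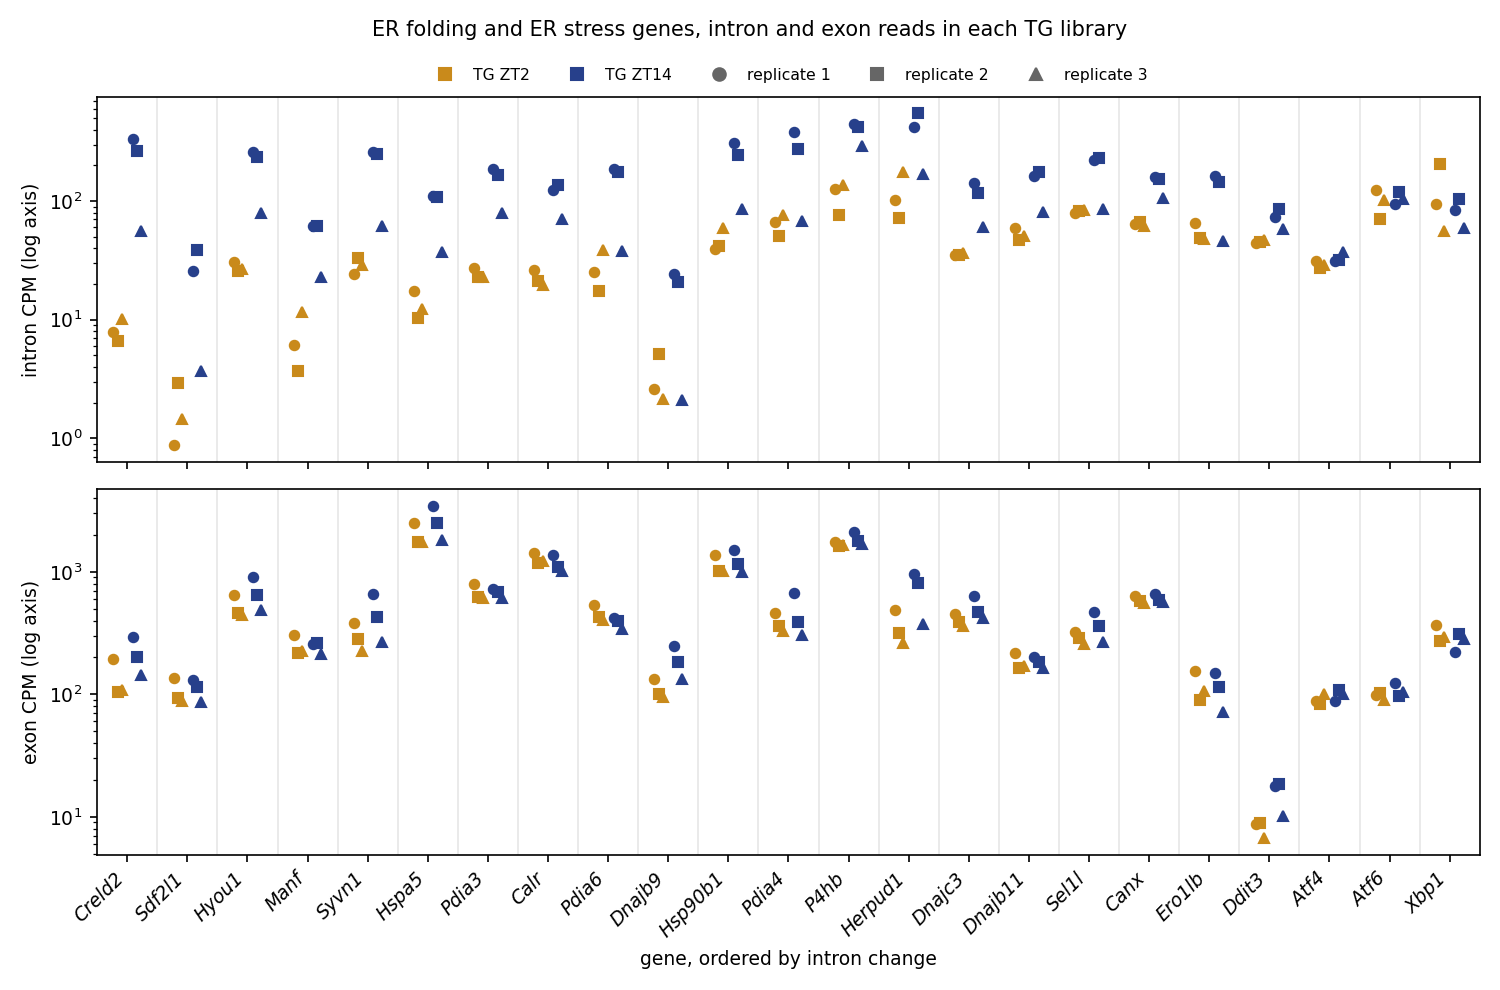
Unique intron and unique exon reads in CPM (log axis) for the 23 ER folding genes, with 1 point for each TG library (ochre for ZT2, blue for ZT14, shapes for replicates). Intron values at ZT14 lie above those at ZT2 in Creld2, Hspa5, Pdia3 and Calr, with replicate 3 the lowest, and the exon values of these genes lie closer together.

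Hspa5 (chr2:34771970-34777547), which encodes the chaperone BiP, counted 17.4, 10.3 and 12.2 intron CPM at ZT2 and 110.6, 107.3 and 37.1 intron CPM at ZT14. Its exon reads were 2516, 1766 and 1767 CPM at ZT2 and 3449, 2509 and 1832 CPM at ZT14. The intron groups did not overlap, whereas the lowest exon value at ZT14 lay among those at ZT2. The intron change was 2.68 (SE 0.52, edgeR adjusted p = 0.00753) and the exon-minus-intron difference -2.24 (SE 0.51, adjusted p = 0.0253). The call of that difference was lost in 8 of 13 alternatives (edgeR or limma adjusted p = 0.0655 to 0.122), the fit without both libraries that stand apart among them. CPM of exon and intron reads are each relative to the reads of that kind, so the levels of the kinds are not comparable.

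Creld2 (chr15:88819646-88826681), a protein of the ER and secretory pathway, showed the largest intron rise of the list. It had 9, 9 and 14 intron reads at ZT2 and 549, 456 and 106 at ZT14, or 7.85, 6.59 and 10.1 against 333.5, 263.0 and 56.2 intron CPM. The intron change was 4.71 (SE 0.76, edgeR adjusted p = 0.00291) and the exon change 0.66 (adjusted p = 0.408). Calr (chr8:84841850-84846934), the lectin chaperone calreticulin, counted 26.2, 21.2 and 19.4 intron CPM at ZT2 and 125.2, 136.1 and 70.5 at ZT14, with 1424, 1181 and 1232 exon CPM at ZT2 and 1371, 1094 and 1009 at ZT14. Its exon-minus-intron difference was -2.43 (SE 0.36, edgeR adjusted p = 0.00137) and was called under all 14 alternatives. Pdia3, a disulfide isomerase that works with calreticulin, gave an intron change of 2.58 and an exon change of -0.01.

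Replicate 3 was the lowest ZT14 library in further members of the list. Hyou1, a large ER chaperone, counted 30.5, 25.6 and 26.7 intron CPM at ZT2 and 261.9, 234.1 and 80.0 at ZT14. Sdf2l1, a BiP partner, changed by 3.59 on intron reads, Manf, an ER-resident secreted factor, by 2.74, Syvn1, the ubiquitin ligase of ER-associated degradation, by 2.71, Pdia6, an isomerase, by 2.28, Hsp90b1, the ER HSP90, by 2.18, and Canx, calnexin, by 1.13. The intron calls of Calr, Hspa5, Hsp90b1, Pdia3, Canx, Creld2, Hyou1 and Syvn1 were kept under every alternative tried; those of Pdia6, Sdf2l1 and Manf were lost under 7, 6 and 5. Dnajb9, an ER co-chaperone, was the member called on exon reads (0.78, edgeR adjusted p = 0.0372). Its total reads were 95.2, 70.6 and 67.1 CPM at ZT2 and 181.0, 131.6 and 95.1 CPM at ZT14, and overlapped narrowly. The transcription factors Xbp1, Atf4, Atf6 and Ddit3 were called on neither kind; Xbp1 had an intron change of -0.53 (edgeR adjusted p = 0.56).

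The ER stress element is shown for the genes that hold it and whose exon-minus-intron difference was called negative, a set picked with those values in view. The element, CCAAT and CCACG set 9 bases apart, was searched on both strands of the 250 bases before each RefSeq gene start (GRCm38.p6). Each line gives the element in capitals with 6 flanking bases on the gene's strand, and reads as the reverse complement where it starts with CGTGG:
Hspa5: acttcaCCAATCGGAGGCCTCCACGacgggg
Hsp90b1: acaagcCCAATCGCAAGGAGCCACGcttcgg
Canx: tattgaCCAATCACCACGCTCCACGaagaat
Pdia6: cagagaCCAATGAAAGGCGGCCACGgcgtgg
Syvn1: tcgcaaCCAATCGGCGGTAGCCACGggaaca
Calr: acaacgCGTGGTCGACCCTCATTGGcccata
Creld2: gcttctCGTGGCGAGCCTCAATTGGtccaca
Derl3: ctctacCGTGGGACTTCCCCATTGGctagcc
The windows lie at chr2:34772019-34772049 (plus strand, Hspa5), chr10:86705632-86705662 (minus, Hsp90b1, which holds another match 107 bases before its start), chr11:50325794-50325824 (minus, Canx), chr12:17266485-17266515 (plus, Pdia6), chr19:6046526-6046556 (plus, Syvn1), chr8:84847069-84847099 (minus, Calr), chr15:88819514-88819544 (plus, Creld2) and chr10:75893236-75893266 (plus, Derl3). The element of Creld2 lies between it and the oppositely directed Alg12, a mannosyltransferase of the ER, whose promoter window holds the same element on its own strand. In Hspa5 the element lies 65 bases before the start.

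The element was found in 37 of 32851 promoters (0.113%), in 18 of 10994 tested genes with a promoter in the table (0.164%), in 8 of 19 ER folding genes with one (42.1%), in 9 of 127 genes with a called negative difference (7.09%), and in 0 of 80 with a positive one. Of the 16 genes with the element that were tested in both kinds of read, 9 rose on intron reads and none fell (median 1.74), 9 had a called negative difference, and edgeR called none on exon reads (median 0.15). Of the 8 of these outside the ER folding list, 1 rose on intron reads, Alg12 (intron change 1.90, exon-minus-intron difference -1.61), and Derl3, a factor of ER-associated degradation, had a called difference of -2.01 with an intron change of 2.73 (edgeR adjusted p = 0.117). Alg12 counted 43.6, 47.6 and 56.9 intron CPM at ZT2 and 227.2, 222.6 and 104.9 at ZT14. The match is a description and no evidence that a factor bound there.

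Clock genes split by kind of read in both directions. Per2 (chr1:91415982-91459324) counted 10.04, 9.69 and 10.7 exon CPM at ZT2 and 129.7, 135.2 and 99.7 at ZT14, against 169.3, 128.2 and 234.9 intron CPM at ZT2 and 320.8, 382.3 and 263.9 at ZT14. The exon change of 3.58 exceeded the intron change of 0.86 by 2.68 (SE 0.24, edgeR adjusted p = 1.41e-05), and in WT by 2.89. Dbp had an exon-minus-intron difference of 2.46 (SE 0.36, edgeR adjusted p = 0.000944), with an exon change of 4.37 and an intron change of 1.90. Cry1, which did not pass the test on total reads, rose by 1.26 on intron reads, from 21.8, 16.9 and 19.4 to 39.5, 44.4 and 54.6 intron CPM, with an exon change of 0.12 and a difference of -1.13 (edgeR adjusted p = 0.0238). That call was lost in 8 of 14 alternatives, and without both libraries that stand apart the difference was -0.85 (edgeR adjusted p = 0.248). Nampt rose on both kinds, by 1.69 on exon and 1.59 on intron reads (difference 0.11, SE 0.25).

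Nfil3 (chr13:52967209-52981073) fell on intron reads in TG while its exon reads did not pass the test. Intron reads were 70.7, 98.9 and 98.7 CPM at ZT2 and 29.8, 34.6 and 36.0 CPM at ZT14, without overlap (log2 change -1.42, SE 0.26, edgeR adjusted p = 0.00519). Exon reads were 93.2, 89.3 and 78.8 CPM at ZT2 and 85.6, 128.2 and 106.3 CPM at ZT14. The exon-minus-intron difference was 1.69 (SE 0.21, edgeR adjusted p = 0.000247) in TG and 0.44 in WT (adjusted p = 0.43). With exon-exon junction reads in place of exon reads the TG difference was 0.22 (edgeR adjusted p = 0.862). Junction reads were 38, 13 and 35 at ZT2 and 12, 15 and 22 at ZT14, or 3.3, 1.15 and 3.39% against 0.872, 0.693 and 1.16% of the exon reads, and 2.02 to 4.62% in the WT libraries. Exon reads do not tell transcripts of the transgene from those of the endogenous gene.

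Outside the clock, negative differences included enzymes of lipid and sugar metabolism. Scd1 (chr19:44394451-44407709), stearoyl-CoA desaturase, counted 43.6, 65.2 and 83.6 intron CPM at ZT2 and 380.3, 584.8 and 571.9 at ZT14, while its exon reads were 9561, 12370 and 9535 CPM at ZT2 and 8908, 7562 and 10680 CPM at ZT14. The difference was -3.23 (SE 0.42, edgeR adjusted p = 0.000354), and -3.96 in WT. Pgk1, phosphoglycerate kinase, counted 9.60, 5.13 and 7.93 intron CPM at ZT2 and 52.2, 38.6 and 38.2 at ZT14, with an exon change of -0.14 and a difference of -2.67. Gapdh, which acts just before it in glycolysis, had a difference of -1.20, with intron reads higher by 1.16. Both genes have processed copies in the genome, and unique reads exclude the reads they share. Slc35b1, an ATP carrier of the ER membrane, had a difference of -2.34 (SE 0.26, edgeR adjusted p = 8.72e-05), and Ppib, an ER prolyl isomerase, of -1.89. Fasn rose on both kinds, by 1.72 on exon and 2.20 on intron reads. Bhmt fell on exon reads by 1.38 with an intron change of 1.16 (edgeR adjusted p = 0.26), a difference of -2.81.

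Positive differences came mainly from intron reads that fell. Hsd17b6, a dehydrogenase of steroids and retinoids, counted 136.1, 218.3 and 139.8 intron CPM at ZT2 and 7.29, 14.99 and 39.2 at ZT14, while exon reads of 114.4, 221.9 and 73.5 CPM at ZT2 and 71.4, 125.5 and 258.7 CPM at ZT14 overlapped. The difference was 3.31 (SE 0.32, edgeR adjusted p = 1.75e-05), and 2.02 in WT. Enpp2, which encodes autotaxin, moved in opposite directions, with exon reads 0.63 higher and intron reads lower by a log2 change of -1.77; the difference was 2.40. Of 28 fatty acid oxidation genes tested in both kinds, 4 had a called positive difference, against 1.0% of all genes. The count was 1 without TG at ZT14 replicate 2 and 2 without TG at ZT2 replicate 3, and 0 in WT. Eci2, an isomerase of unsaturated acyl-CoA, changed by -1.23 on intron and 0.33 on exon reads. Cpt1a, the entry step of mitochondrial oxidation, changed by -0.85 and 0.39. Gys2 rose on exon reads by 1.45 with an intron change of -0.35, a difference of 1.78, and Cyp2e1, a pericentral P450, had an intron change of -1.83 with an exon change of 0.22. Cyp4a10, Cyp4a14, Cyp4a31 and Cyp4a32 had differences of 2.25, 2.52, 4.16 and 2.84, but they are similar genes of 1 family. Unique reads exclude the reads that such genes share, and the part of this in the differences was not tested.

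Last, the time change in TG was set beside that in WT, which used other libraries. Of the 1862 TG and 1398 WT calls, 896 were called in both genotypes in the same direction, or 48.1% and 64.1%, 472 higher and 424 lower; none was called in opposite directions. Choosing genes called in TG and not in WT itself favours a difference between genotypes, so their counts are no test of it. Of the 966 called in TG alone, 903 had the same sign in WT, and 245 had an unadjusted p below 0.05 for the difference between genotypes. That difference was called by edgeR for 1 gene (0.00656%), with 912 at an unadjusted p below 0.05; DESeq2 called 21.

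**Figure D5:**
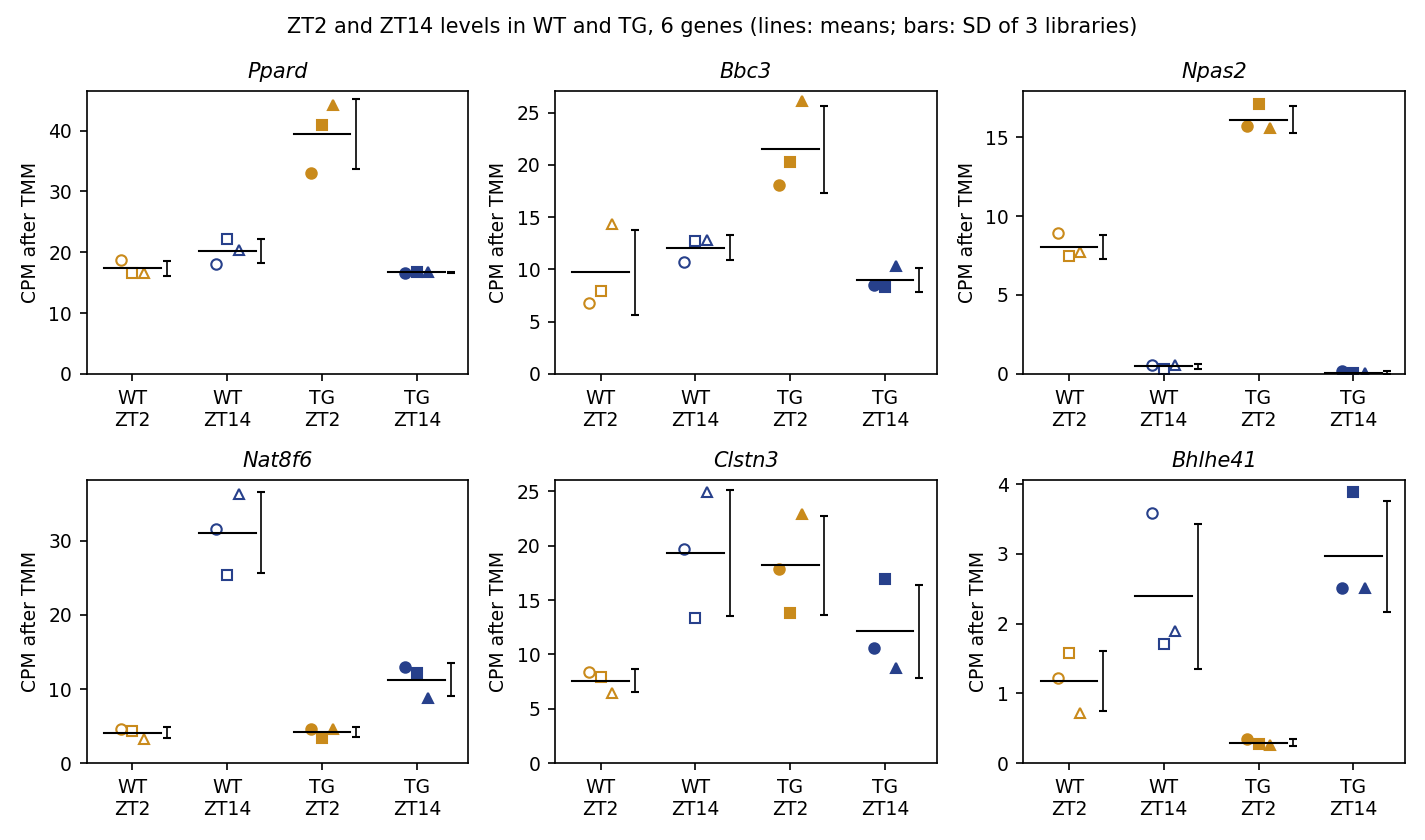
Total gene reads in CPM of 6 genes in the 4 groups of 3 libraries (points by replicate, lines for means, bars for SD). Ppard and Bbc3 are highest in TG at ZT2, Nat8f6 is highest in WT at ZT14, and Npas2 is near 0 at ZT14 in both genotypes.

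The gene called was Ppard (ENSMUSG00000002250, chr17:28232754-28301469), which encodes the fatty acid receptor PPAR delta. It counted 33.0, 41.0 and 44.2 CPM at ZT2 and 16.6, 16.7 and 16.7 CPM at ZT14 in TG (39.4 ± 5.75 against 16.7 ± 0.0623, SD, n = 3), and 18.8, 16.6 and 16.6 CPM at ZT2 and 18.1, 22.1 and 20.4 CPM at ZT14 in WT. Only the TG libraries at ZT2 stood above the rest. The change was -1.24 in TG (SE 0.11, edgeR adjusted p = 4.57e-05) and 0.22 in WT (adjusted p = 0.278), a difference of -1.46 (SE 0.16, adjusted p = 0.0109). The call was lost in 5 of 22 alternatives, at edgeR adjusted p of 0.0533 to 0.222. They were the fit without both libraries that stand apart (-1.44, edgeR adjusted p = 0.0672), those without replicate 2 of TG at ZT2, replicate 2 of TG at ZT14 or replicate 3 of WT at ZT14, and that with the replicate number as a block. On exon reads Ppard fell by 1.67 in TG, with 36.3, 44.8 and 47.7 CPM at ZT2 and 13.9, 13.8 and 12.9 CPM at ZT14; on intron reads the change was -0.42 (edgeR adjusted p = 0.223), and the exon-minus-intron difference was -1.26 (adjusted p = 0.000944).

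Bbc3, Nat8f6 and Clstn3 are examples that DESeq2 called for a difference between genotypes and edgeR did not. Bbc3, a BH3 protein that promotes apoptosis, counted 18.1, 20.3 and 26.1 CPM at ZT2 and 8.46, 8.27 and 10.3 CPM at ZT14 in TG, a change of -1.25 (edgeR adjusted p = 0.00465), against 0.32 in WT. The difference of -1.57 had an adjusted p of 0.464 in the main edgeR fit and was called by DESeq2. Nat8f6, of the family of N-acetyltransferase 8 genes, rose in both genotypes, by 1.42 in TG and 2.92 in WT, a difference of -1.50. Nat8f6 belongs to a cluster of similar genes, and the division of reads between them is uncertain. Clstn3, a calsyntenin, changed by -0.59 in TG (edgeR adjusted p = 0.186) and by 1.35 in WT, a difference of -1.94. The TG libraries of Clstn3 overlapped between the times.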

How the data were processed

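Livers of 12 libraries were profiled by poly(A) RNA sequencing in 4 groups of 3. Per the file headers, the authors deposited for each gene whole-number counts of total, unique, unique exon, unique intron and junction reads, beside RPKM and TPM values; the counts were used, and the authors' deposited TPM and RPKM values were not tested. No source at hand states the aligner settings, the annotation version or the counting strand, so antisense and overlapping genes cannot be told apart. Total gene reads were tested with edgeR 4.0.16 in R 4.3.3 (filterByExpr with a minimum count of 10 and total of 15, TMM scaling, glmQLFit and glmQLFTest on all 12 libraries in 4 groups, Benjamini-Hochberg over all genes tested, threshold 0.05). Fold changes are ZT14 over ZT2 on the log2 scale, and each SE was derived from the change and its F statistic. Exon and intron reads were scaled separately, in genes with at least 2 exons, and their difference was tested in a model with a term per library. No test was made over a list; list counts and medians are read against those of all genes. The members and the gene lists were chosen with earlier results of these data known.

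The named genes are the 15 largest changes in each direction whose TG libraries do not overlap and that reach 5 CPM, all clock and PAR bZIP genes, the 4 members of each other list with the smallest p, the 10 smallest p in each direction of the exon-minus-intron difference, 6 called alike on both kinds of read, and the 10 smallest p of the difference between genotypes; predicted genes were left out and some others are not reported here. Fasn, Srebf1, Pck1, G6pc, Hspa1a, Hspa8, Hsph1, Gapdh, Cyp2e1, Cyp4a10, Cyp4a14, Derl3 and the ER folding genes beyond the 4 were picked after their values were seen. The tests were also run on simulated counts, and the outcome is not reported here. For the exon-minus-intron difference, the simulated spread within each kind of read was set below its estimate from these libraries. Duplicate libraries were looked for with a chi-square over genes, which was 9.09 to 83.06 per degree of freedom between libraries of a group. Alternatives were other scalings, filters, read kinds and tools (DESeq2 1.42.0, limma 3.58.1), the replicate number as a block, and each library left out. For exon reads, intron reads and their difference, only TG libraries were left out. The fits without both libraries that stand apart, with junction reads or without overlapping genes were added after seeing the data. So were all alternatives of the separate tests on exon reads and on intron reads. Promoters are from RefSeq, GRCm38.p6.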

Additional observations from a re-analysis of the deposited data

Results flagged for a closer look

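The change of Ppard from ZT2 to ZT14 differed between the genotypes by a test of the difference itself, with a fall in TG (-1.24) and 0.22 in WT, a difference of -1.46 on the log2 scale (SE 0.16, edgeR adjusted p = 0.0109). The difference lay between -1.62 and -1.37 in the alternatives tried.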

How the results depend on the processing

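Among the called changes of named genes that were followed through the alternatives, none changed direction. Fasn, Srebf1, Hspa8, Hsph1, Gapdh, Cyp2e1, Cyp4a10, Cyp4a14 and Derl3 were among the genes not followed. Of all 1862 calls, 4 changed sign with uniquely mapped reads and 8 with exon reads alone. Without both libraries that stand apart, the calls of time in TG were 1150 on total gene reads, 310 on intron reads, 137 for the exon-minus-intron difference and 2 for the difference between genotypes. Of the 1862 genes called in TG, 1045 were also called then. A threshold of 0.01 left 757 calls of time in TG and 0 between genotypes, with 912 at an unadjusted p below 0.05, and 443 of the time calls reached 2-fold. The count between genotypes was 4 with RLE size factors, 4 with uniquely mapped reads, 11 with no filter and 21 with DESeq2. The exon-minus-intron count was 168 with scaling by total gene reads, 450 with the 6 TG libraries alone and 93 with limma. Leaving out 1 library of either genotype at a time gave 1127 to 1873 calls on total gene reads and 0 to 3 between genotypes. Leaving out 1 TG library at a time gave 1092 to 1602 on exon reads, 303 to 556 on intron reads and 79 to 203 for the exon-minus-intron difference. The cause of these shifts was not tested.

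Replicate numbers did not pair the libraries: the deviations of TG libraries with the same number correlated at 0.14, -0.24 and -0.25, and those of WT at -0.05, -0.12 and -0.04. With the replicate block, the calls of time in TG were 1273 on total gene reads, 1278 on exon reads and 328 on intron reads, with 0 between genotypes and 7 for the exon-minus-intron difference in limma. With the block, 3 genes of the glycolysis list and 1 of the fatty acid oxidation list rose, and in limma 1 gene of the ER folding list had a called negative difference.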
